A study of Mus musculus with 4 samples.

Results

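The genes described here copy DNA or carry cells through mitosis. They were taken from a list of 44 genes, 17 of S phase and 27 of mitosis, and 43 of them were in the deposited expression table of 9997 gene symbols (Timeless was not analysed here). RNA had been sequenced from embryoid bodies, floating balls of differentiating embryonic stem cells, here of the mouse line ES-E14TG2a. There were 4 groups with 1 library each: control embryoid bodies, and embryoid bodies treated with ATRA (all-trans retinoic acid, a vitamin A derivative that binds nuclear receptors) and labelled 0, 6 and 10 days. ATRA was used at 5 µM, added on culture days 4 and 6, and the series text speaks of 4 days of treatment. After 8 days in suspension the embryoid bodies were moved to dishes coated with poly-DL-ornithine and laminin. The labels do not give the culture age of the control or say on which side of the transfer each library was taken, so ATRA, age and culture format cannot be told apart in any comparison with the control. With 1 library per group there is no replicate error and no test, and every difference below describes these 4 libraries.

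Replication begins from origins that are licensed in G1, when Cdc6 and its partners load the Mcm helicase. In S phase the helicase opens the duplex, primase starts each strand, ribonucleotide reductase and thymidine kinase supply deoxynucleotides, and chromatin assembly factor puts histones back behind the fork. Entry into mitosis is driven by Cdk1 bound to cyclin B, after which kinetochores attach chromosomes to the spindle and separase frees the sister chromatids. Genes of the first phase are known as targets of E2F factors, and genes of the second are bound by the MuvB complexes through an element called the CHR, often beside CCAAT boxes. Mouse embryonic stem cells are known for a fast cycle with a short G1 and a large share of cells in S phase.

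The promoters of both classes are shown first because their motif counts use no expression value. RefSeq promoter windows (GRCm38.p6; 250 bases before to 50 after the start) were found for 33 of the 43 genes. Motifs were searched on both strands. The CHR was taken as TTTGAA or as TTTAAA, which is its own reverse complement, and the CCAAT box by the letters of its name. The E2F motif was taken as any of the strings TTTCCCGC, or TTTCGCGC, or TTTGCCGC, or TTTGGCGC. A CHR stood in 15 of 21 mitotic promoters and 3 of 12 S phase promoters, against 27.0% of the 6731 genes of the table with a window. An E2F motif stood in 4 of 12 S phase promoters (Mcm3, Mcm6, Cdc6 and Msh6) and 2 of 21 mitotic ones (Cdk1 and Cenpm), against 3.12% of those genes. CCAAT boxes were found in 18 of 21 and 8 of 12, against 41.2%. Within 50 bases on either side of the start, a CHR was present in 13 of 21 mitotic and 2 of 12 S phase promoters, against 7.92%. Among other genes of the 2 processes the CHR counts of the whole window lay nearer to each other, at 8 of 18 mitosis and 5 of 13 replication genes. Within 50 bases of the start they were 7 of 18 and 2 of 13. An E2F motif stood in 2 of 18 and 4 of 13. A match is a string of letters, not a shown binding site.

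Stretches of 4 promoters are printed 5′ to 3′ on the gene's strand, lower case with motif matches in capitals: Mcm6 as an S phase promoter with E2F motifs, Cdk1 and Top2a as mitotic promoters with CHR and CCAAT boxes, and Cdkn3 as a promoter of the mitotic kind whose gene kept its level. They lie at chr1:128359706-128359835 (minus strand), chr10:69352939-69353068 (minus), chr11:99024190-99024319 (minus) and chr14:46760411-46760540 (plus), and none reaches an annotated exon.
Mcm6: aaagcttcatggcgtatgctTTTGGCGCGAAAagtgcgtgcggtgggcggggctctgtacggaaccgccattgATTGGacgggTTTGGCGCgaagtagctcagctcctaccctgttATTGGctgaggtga
Cdk1: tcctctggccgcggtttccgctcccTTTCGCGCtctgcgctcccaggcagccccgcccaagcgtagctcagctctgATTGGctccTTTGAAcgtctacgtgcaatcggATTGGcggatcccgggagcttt
Top2a: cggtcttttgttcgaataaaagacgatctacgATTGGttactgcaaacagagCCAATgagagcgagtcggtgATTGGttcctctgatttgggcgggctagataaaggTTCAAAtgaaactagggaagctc
Cdkn3: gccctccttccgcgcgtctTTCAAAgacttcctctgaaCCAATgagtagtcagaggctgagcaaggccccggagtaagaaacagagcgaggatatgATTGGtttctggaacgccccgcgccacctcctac
In Mcm6 the first run of capitals is 2 overlapping E2F motifs on opposite strands, and ATTGG is the CCAAT box read from the other strand. Cdk1 carries 1 E2F motif, a CHR and 2 CCAAT boxes in the stretch shown. Top2a and Cdkn3 carry the CHR as TTCAAA, on the other strand.

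**Figure D1:**
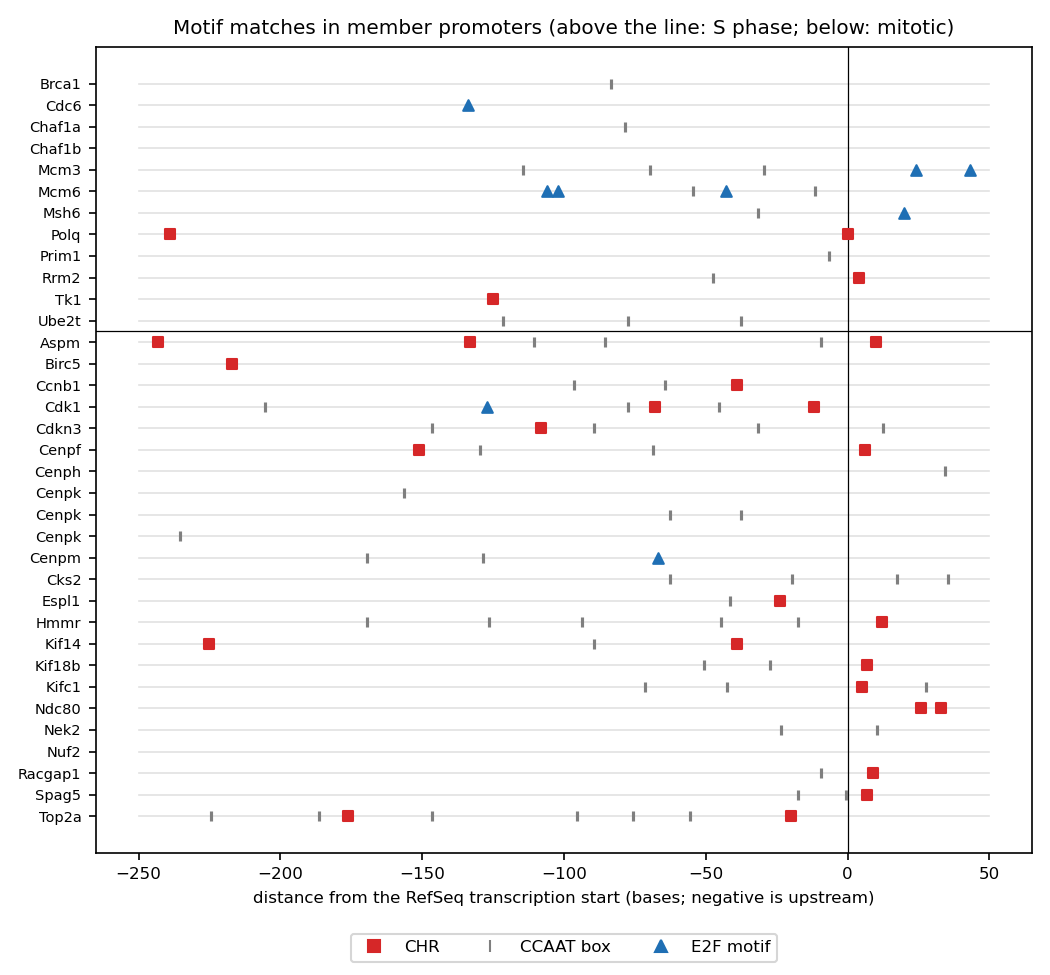
Motif matches in the RefSeq promoter windows of 33 members (1 row per window; Cenpk has 3), with distance from the transcription start in bases on the x axis. Red squares (CHR) lie in 15 of the 21 mitotic genes below the line and in 3 of the 12 S phase genes above it.

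Levels are in FPKM: sequenced fragments divided by transcript length in kilobases and scaled to the library's total, so genes can be compared per length. Differences are between log2(FPKM + 1) values, and a gene is called lower or higher at a difference of 2-fold or more on that scale. All 43 members reached 1 FPKM in at least 1 library, as did 5885 symbols of the table. Depth was estimated at 24500000 to 27300000 fragments per library, from low values inside a set window that itself bounds the estimate. At that depth the counting error of the 10-day difference had a standard error between 0.0183 and 0.116 on the log2 scale for every member, which covers counting only.

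Almost all members were highest in the control. This held for 40 of 43 genes, against 38.2% of all genes that passed the filter. The exceptions were Chaf1a, highest at 0 days, Cdkn3, highest at 6 days, and Cdc25c, highest at 10 days. The lowest library was 10 days for 26 members, 0 days for 12 and 6 days for 5. Of all genes, 28.5%, 24.9% and 12.9% were lowest in these libraries, so the last 2 counts are near the background. At 0 days, 22 of 43 members were 2-fold or more lower than in the control (12.8% of all genes were). At 6 days 16 were lower (12.5% of all genes), and at 10 days 26 (17.1%). No member was 2-fold or more higher than the control in any ATRA library, where 12.2%, 15.3% and 19.6% of all genes were. These 3 comparisons share the control library.

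S phase members stood further below the control than mitotic members at all 3 ATRA times. The median S phase difference was -1.17 at 0 days, -1.16 at 6 days and -1.54 at 10 days, and the median mitotic difference was -0.84, -0.76 and -1.04. Over all genes the medians were -0.04, -0.07 and -0.04. At 10 days 12 of 16 S phase members and 14 of 27 mitotic members were 2-fold or more lower. As a share of the control FPKM, the median S phase member kept 33.4% at 10 days and the median mitotic member 47.8%. The classes overlapped in part at 10 days: 12 of 16 S phase differences lay below the mitotic median and 3 of 27 mitotic ones below the S phase median. Of the 10 largest declines, 7 were S phase genes and 3, Ccnb1, Espl1 and Nek2, mitotic.

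A ratio within a library does not depend on how libraries were scaled to each other. The summed FPKM of the S phase members was 0.878 times that of the mitotic members in the control, and 0.646, 0.543 and 0.495 times in the 0-, 6- and 10-day libraries. The ratio of geometric means, in which abundant genes weigh no more than others, was 1.63 in the control and 1.19, 1.23 and 1.17 in the ATRA libraries. By the second measure the shift lay between the control and 0 days, and the 3 ATRA libraries lay close together.

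**Figure D2:**
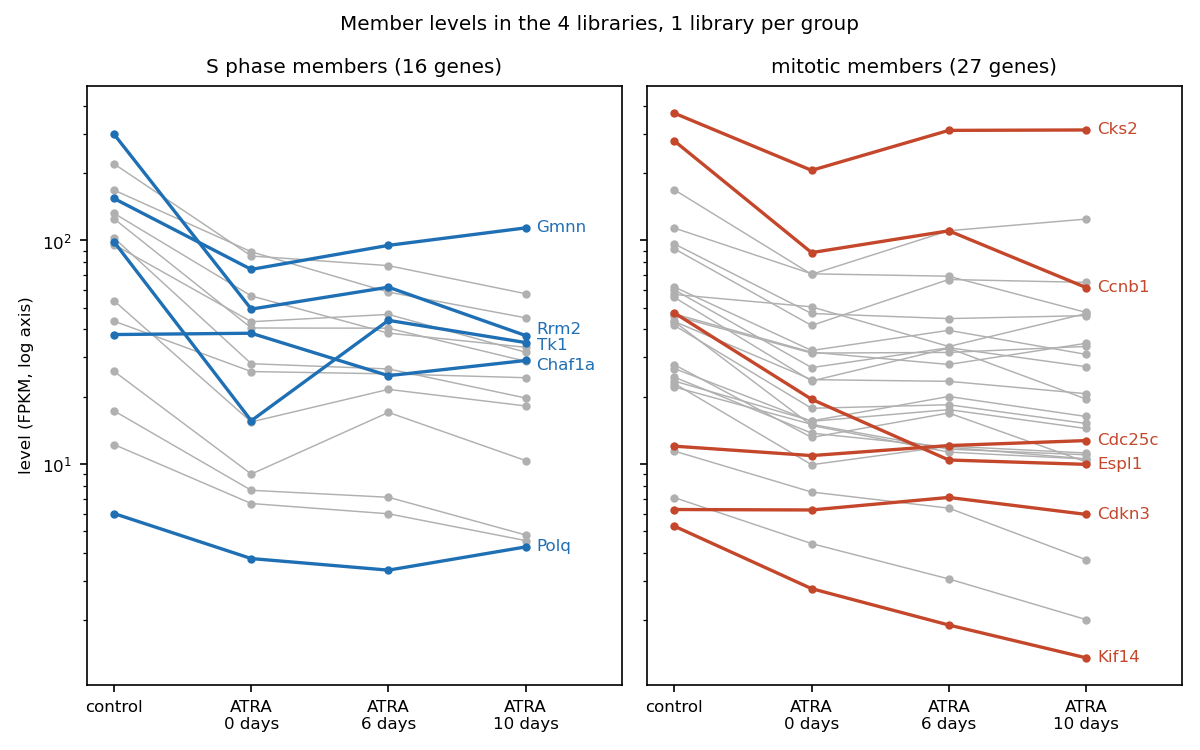
FPKM (log axis) of each of the 16 S phase members (left) and 27 mitotic members (right) in the 4 libraries; each line is 1 gene and coloured genes are named. Rrm2 goes from 299 FPKM in the control to 37.6 FPKM at 10 days, while Cks2 stays between 206 and 371 FPKM and Cdc25c between 10.9 and 12.7 FPKM.

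The size of the decline changed with the scaling. The gap between the classes changed little, as scaling shifts both classes nearly alike. Of 18 housekeeping genes listed as references, 7 were analysed. Their median differences from the control were -0.74, -0.46 and -0.87 in the 0-, 6- and 10-day libraries. In the last, 6 of them lay below the control and Rps18 above it (0.28). The lowest were Tfrc, Sdha and Polr2a (-1.76, -1.03 and -0.88), and next to Rps18 the highest were Ywhaz and Ppia (-0.81 and -0.86). Ppia stood at 5055, 2183, 3663 and 2778 FPKM, and Rps18 at 4199.5, 3343, 3468 and 5096 FPKM in library order. Libraries were also scaled to the median of these 7 genes. Then 3, 8 and 8 of 43 members were 2-fold or more lower at 0, 6 and 10 days. In the same order, 242, 355 and 280 of 5922 genes were. The S phase medians were then -0.39, -0.73 and -0.67 and the mitotic medians -0.07, -0.32 and -0.17. The same scaling moved the median of all genes to 0.57, 0.30 and 0.70, and 87.8% of the genes called at 0 days were then higher, against 48.9% as deposited. Upper-quartile scaling gave 9, 10 and 24 lower members, against 497, 519 and 863 of 5899 genes. Its all-gene medians were 0.15, 0.13 and 0.04, and 65.6% of called genes were higher at 0 days. The S phase median stayed below the mitotic median in every setting, with a difference between -0.36 and -0.32 at 0 days, -0.45 and -0.40 at 6 days, and -0.53 and -0.50 at 10 days. The scalings could hardly have altered this order, so they do not test it.

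The 3 helicase subunits were called lower at 6 and 10 days, and Cdc6 and Gmnn took other courses. Mcm3, a subunit of the replicative helicase, was at 220.1 FPKM in the control and 85.2, 77.2 and 57.8 FPKM at 0, 6 and 10 days. Mcm4, another subunit, was at 125, 40.6, 40.5 and 28.8 FPKM, and Mcm6, also a subunit, at 168, 89.0, 58.8 and 45.1 FPKM. All 3 subunits were thus lowest at 10 days, at 26.3%, 23.1% and 26.8% of the control. Cdc6, which loads the helicase, was at 25.97, 9.02, 17.0 and 10.4 FPKM, with 6 days above its neighbours. Gmnn encodes geminin, which blocks reloading after S phase. It was at 154, 74.2, 95.1 and 114 FPKM, lowest at 0 days and at 73.9% of the control at 10 days, the reverse order of the helicase subunits among the ATRA libraries.

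Genes of nucleotide supply had the largest early declines of all members. Rrm2 (mm10 chromosome 12, 24708241 to 24714146) encodes the small subunit of ribonucleotide reductase, whose level limits deoxynucleotide synthesis. It was at 299, 49.3, 61.8 and 37.6 FPKM, and its difference of -2.96 at 10 days was the largest of any member. Tk1, thymidine kinase of the salvage pathway, was at 98.5, 15.6, 43.9 and 34.9 FPKM. Its level at 0 days was 15.9% of the control, and between 0 and 6 days it was the 1 member that was 2-fold or more higher (1.43 on the log2 scale; 8.22% of all genes were higher in that step). Prim1, the catalytic primase subunit, was at 95.9, 43.3, 46.7 and 31.6 FPKM, below 50% of the control in all 3 ATRA libraries.

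The genes that act behind the fork did not move as one. Chaf1a and Chaf1b encode 2 subunits of chromatin assembly factor. Chaf1b was at 53.7, 15.4, 21.6 and 18.2 FPKM, while Chaf1a was at 38.0, 38.5, 24.8 and 29.1 FPKM. Chaf1b was thus at 28.7% of the control at 0 days and Chaf1a at 101%. In the annotation 52.5% of the exonic bases of Chaf1a overlap Ubxn6 on the opposite strand (17.6, 16.3, 23.0 and 30.4 FPKM), and as no source used here says whether counting used strand, reads of the 2 genes cannot be told apart. Esco2 encodes the acetyltransferase that locks cohesin onto sister chromatids during S phase. It was at 103, 28.1, 26.6 and 19.7 FPKM, the second largest decline at 10 days (-2.32).

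Of the 5 repair genes, 3 were called lower at 10 days, against 17.1% of all genes. Msh6, the mismatch recognition subunit, was at 132, 56.5, 38.5 and 33.3 FPKM, and at 10 days its difference was -1.96. Brca1, of homologous recombination, was at 17.3, 7.63, 7.10 and 4.82 FPKM. Exo1, a nuclease of mismatch repair and end resection, was at 12.2, 6.66, 5.99 and 4.55 FPKM. All 3 were lower at each successive library. Ube2t, the ubiquitin-conjugating enzyme of the Fanconi pathway, was at 43.6, 25.9, 25.3 and 24.3 FPKM. Polq, the polymerase of end joining by short homology, was at 6.01, 3.78, 3.35 and 4.26 FPKM. Neither of these was called at any time.

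Genes of mitotic entry ranged from among the largest declines to none. Ccnb1, cyclin B1 (chromosome 13, 100778650 to 100786570), was at 279, 88.2, 110.5 and 61.6 FPKM, or 22.1% of the control at 10 days. Its partner Cdk1 (chromosome 10, 69335146 to 69352938) was at 91.8, 41.7, 66.9 and 65.0 FPKM, or 70.8%. The kinase and its cyclin were thus both called lower at 0 days (-1.12 and -1.65), and at 10 days only the cyclin was (-0.49 and -2.16). Cks2, a small subunit that binds Cdk1, was the most abundant member per length, at 371, 206, 311 and 312 FPKM. Cdc25c, a phosphatase that activates Cdk1, was at 12.02, 10.9, 12.1 and 12.7 FPKM. Cdkn3, a phosphatase that acts on cyclin-dependent kinases, was at 6.26, 6.23, 7.09 and 5.96 FPKM. Cdc25c and Cdkn3 differed from the control by at most 0.16 on the log2 scale in any library. The Cdkn3 promoter printed above holds CCAAT boxes and a CHR, the latter 111 bases upstream of the start.

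The kinases of this group also split. Nek2, a kinase of centrosome separation, was at 43.3, 14.9, 11.3 and 10.5 FPKM, called lower at all 3 times. Pbk, a mitotic kinase, was at 60.2, 27.0, 33.1 and 27.3 FPKM. Aurkb, the catalytic subunit of the chromosomal passenger complex, was at 46.9, 31.6, 27.9 and 34.7 FPKM, and never called. Its partner in that complex, Birc5 (survivin), was at 168, 70.6, 111 and 125 FPKM. Both passenger subunits were near the same share of the control at 10 days, 73.9% for Aurkb and 74.0% for Birc5, but at 0 days they were at 67.4% and 41.9%.

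Of the 6 centromere and kinetochore genes, 2 were called lower at 0 days, none at 6 days and 2 at 10 days. Of all genes 12.8%, 12.5% and 17.1% were, and counts in a list of 6 genes say little beside such shares. All 6 lay below the control at each time, with medians of -0.83, -0.66 and -0.97. Over all genes the medians were -0.04, -0.07 and -0.04. Cenpf, a large kinetochore protein, was at 11.4, 7.496, 6.35 and 3.73 FPKM, lower at each successive library. Nuf2 and Ndc80 are partners in the complex that grips microtubules. Nuf2 was at 27.8, 13.2, 16.9 and 10.2 FPKM and Ndc80 at 23.5, 15.6, 20.1 and 16.3 FPKM, so that at 10 days Nuf2 was at 36.8% of the control and Ndc80 at 69.4%. Cenph was at 61.9, 32.2, 39.6 and 30.9 FPKM, Cenpk at 22.9, 9.93, 12.02 and 11.2 FPKM, and Cenpm at 26.7, 15.5, 17.5 and 14.4 FPKM. These genes of the inner kinetochore had 10-day differences of -0.98, -0.97 and -0.85, so that none of the 3 was called. Without the added 1, Cenph and Cenpk were at 49.97% and 48.9% of the control FPKM, just past 2-fold, and Cenpm at 53.9%.

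Among the genes of chromosome structure and separation, Espl1, separase, was at 47.4, 19.5, 10.4 and 9.97 FPKM, or 21.02% of the control at 10 days. Top2a, the topoisomerase that untangles sister chromatids, was at 114, 70.9, 69.2 and 47.7 FPKM. Cdca2, which recruits a phosphatase to chromatin at mitotic exit, was at 46.1, 31.4, 31.6 and 33.6 FPKM. Espl1 was called lower at all 3 times, Top2a at 10 days and Cdca2 at none.

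Spindle and cytokinesis genes had 7 of 9 members called lower at 10 days, against 17.1% of all genes. Kif14, a kinesin of cytokinesis, was the lowest member at 5.27, 2.77, 1.91 and 1.36 FPKM. Aspm, of the spindle poles, was at 7.08, 4.41, 3.06 and 2.02 FPKM. Kif20a, a kinesin of the central spindle, was at 55.6, 23.5, 33.0 and 19.5 FPKM. In the annotation 29.3% of the exonic bases of Kif20a overlap Cdc23 on the opposite strand. Hmmr, a spindle assembly protein, was at 41.7, 17.8, 18.4 and 15.2 FPKM and Racgap1, which signals the cleavage furrow to contract, at 96.5, 47.1, 44.7 and 46.1 FPKM. These 2 genes were called lower at all 3 times. Kif18b, a kinesin that shortens microtubules, was at 24.5, 13.7, 11.9 and 10.5 FPKM. Dlgap5, which stabilises spindle fibres, was at 43.4, 23.9, 23.4 and 20.6 FPKM. Spag5, a spindle protein, was at 22.1, 15.1, 11.7 and 11.00 FPKM. The first 2 were called lower at 10 days (-1.14 and -1.04) and Spag5 was not (-0.95). Kifc1, a minus-end kinesin, was at 57.4, 50.5, 33.6 and 47.1 FPKM and never called. Its reads may be shared with Kifc5b, a coding gene 95.9% identical over the whole transcript (18.0, 19.8, 14.9 and 23.7 FPKM).

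**Figure D3:**
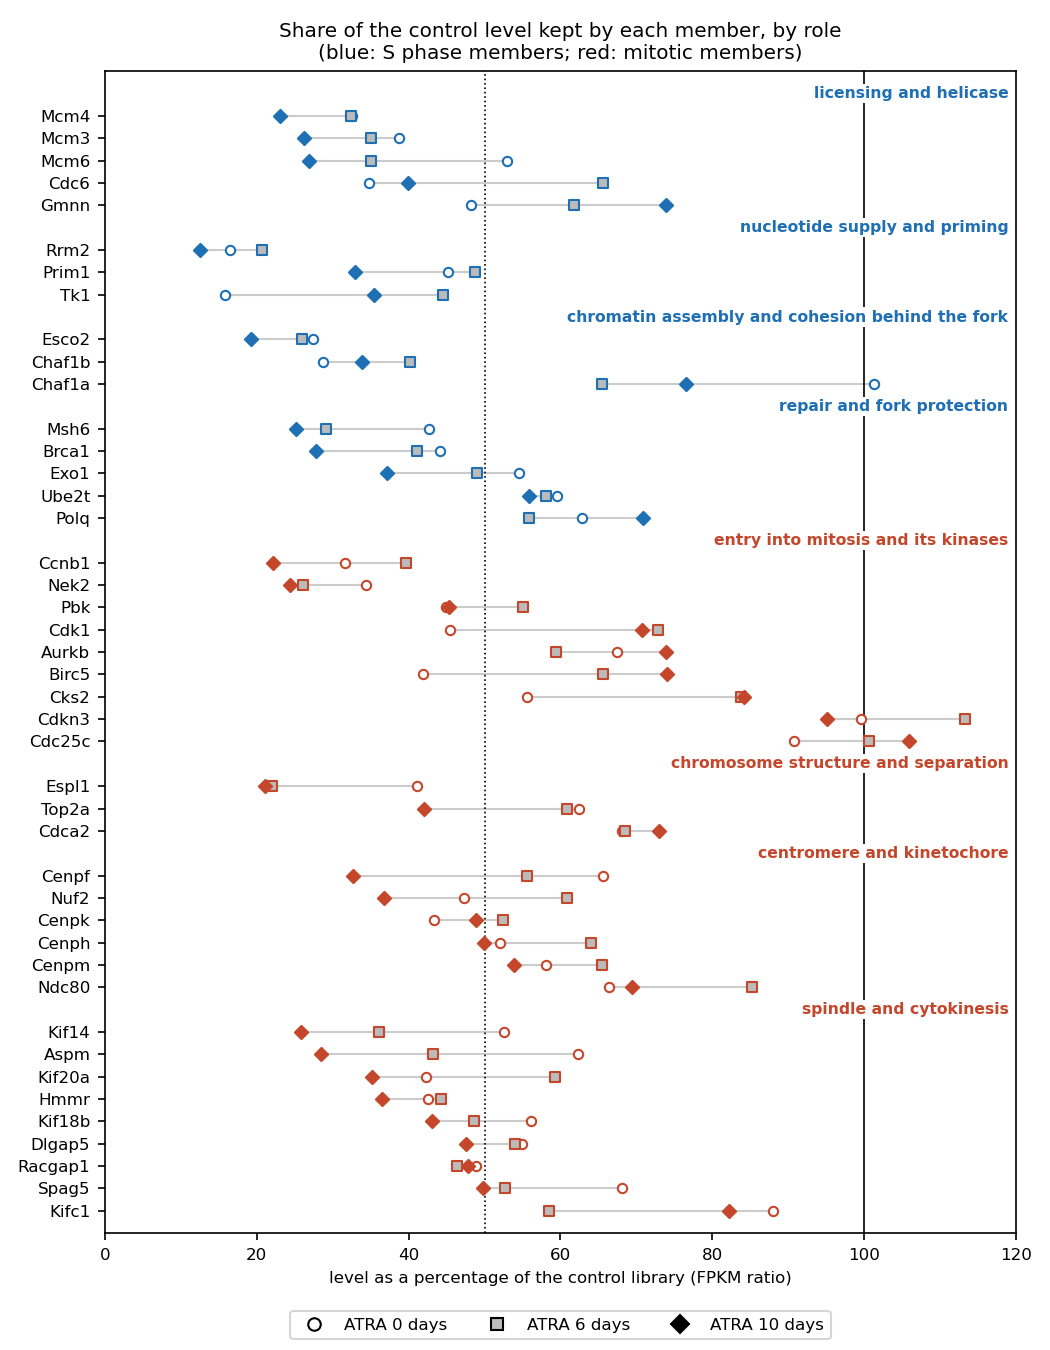
Level of each of 43 members at 0, 6 and 10 days as a percentage of its control FPKM (x axis; dotted line at 50, solid line at 100), grouped by role. Rrm2 at 12.6% and Esco2 at 19.2% have the lowest 10-day values, and Cdkn3 and Cdc25c cross the control line.

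Between successive ATRA libraries the members moved little. From 0 to 6 days none was called lower (4.88% of all genes were) and 1, Tk1, higher, and from 6 to 10 days none was called either way (0.85% of all genes were lower and 3.7% higher in that last step). The S phase medians of these steps were -0.05 and -0.35, and the mitotic medians 0.05 and -0.18. Under reference gene scaling 3 of these directions turned: the mitotic median was -0.28 from 0 to 6 days, and from 6 to 10 days the S phase and mitotic medians were 0.062 and 0.26. As deposited, of the 43 members, 21 were above their 0-day level at 6 days and 33 were below their 6-day level at 10 days. Of all 5885 genes, 3000 were above in the first step, so the 21 are near the background. In the second step 48.1% of all genes were below. The run of control above 0 above 6 above 10 days was found in 8 of 16 S phase and 9 of 27 mitotic members. In 16 members the 6-day level was above those at both 0 and 10 days, among them Cdc6, Tk1, Ccnb1 and Kif20a. The shares of all genes with either of these orders were not computed. Of all members, 14 were at or below 50% of their control FPKM in all 3 ATRA libraries (9 S phase, 5 mitotic), against 8.94% of all genes.

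Other genes of the same processes gave medians close to those of the members. Of 18 further replication genes in the table, 9 were lower at 0 days, 11 at 6 days and 14 at 10 days (12.8%, 12.5% and 17.1% of all genes were), with medians of -1.04, -1.06 and -1.61. The largest 10-day differences were in Uhrf1, which couples replication to maintenance methylation (177, 42.1, 47.1 and 29.0 FPKM), Rpa1, the large subunit that coats single strands (153, 126, 43.5 and 36.6 FPKM), and Dtl, of the ligase that destroys the licensing factor Cdt1 (41.0, 18.4, 14.3 and 9.44 FPKM). The smallest were in Donson, Rfc4 and Cdc45, at -0.40, -0.49 and -0.70. Of 22 further mitosis genes, 10, 10 and 11 were lower against the same shares of all genes, with medians of -0.82, -0.92 and -1.002. Sgol1, which protects centromeric cohesion, and Hjurp, the chaperone of the centromeric histone, were among the lowest at 10 days (-1.68 and -1.67). Ska2 and Cenpl were at -0.09 and -0.25. Zwint, a kinetochore gene, was the 1 gene of this list called higher, at 87.5 FPKM in the control and 163, 228 and 217 FPKM in the ATRA libraries (1.38 at 6 days and 1.30 at 10 days).

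Of 10 genes for G1 cyclins and kinases, E2F and MuvB subunits and Myc proteins, 2 were called lower at 0 days and 1 at 6 and at 10 days, Ccnd3 each time. With 12.8%, 12.5% and 17.1% of all genes called lower, these counts are near the background. Ccnd3, cyclin D3, was at 319, 60.1, 111 and 141 FPKM. The next lowest at 10 days were E2f7 and Lin52, at -0.92 and -0.72. The other call at 0 days was Myc, at 21.5, 9.55, 13.1 and 18.1 FPKM. E2f6, a repressor of the E2F family, was at 9.77, 16.5, 15.5 and 13.2 FPKM and Mycn at 18.3, 9.44, 21.7 and 21.9 FPKM, the 2 highest 10-day differences of the list (0.40 and 0.25). Of 9 genes that restrain proliferation, 2 were called higher at 0 days and 5 at 6 and at 10 days, against a background of 12.2%, 15.3% and 19.6%. At 10 days these were Gadd45g (3.53, 24.7, 31.6 and 67.8 FPKM), Gadd45b (7.65, 10.3, 21.8 and 61.9 FPKM), Gas1 (0.843, 88.7, 12.1 and 10.7 FPKM), Cdkn1a, which encodes the inhibitor p21 (64.9, 122, 182 and 233 FPKM), and Btg1 (19.3, 20.03, 42.5 and 47.3 FPKM). Pkmyt1, a kinase that holds Cdk1 inactive and is itself a cycle gene, was the 1 gene of this list called lower, at 0 days (17.2 and 7.93 FPKM). Rb1 and Btg2 were at 0.20 and 0.33 at 10 days.

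**Figure D4:**
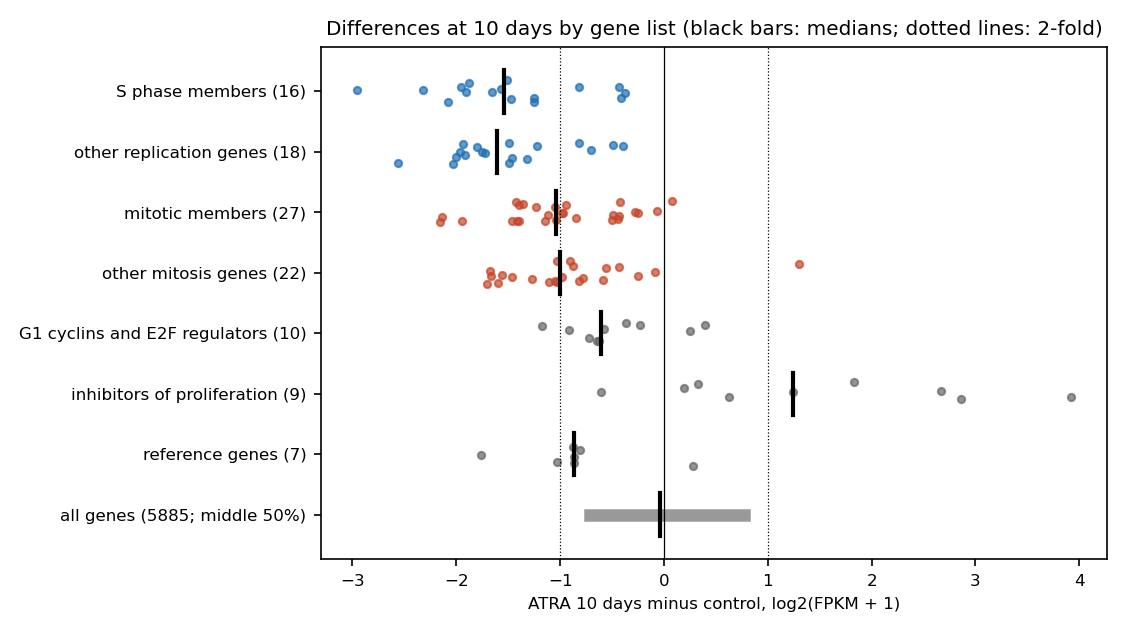
Difference between 10 days and control on the log2(FPKM + 1) scale for each gene of 7 lists (points, with the number of genes in brackets; vertical scatter has no meaning), black bars at the medians, and the middle 50% of all 5885 genes. The S phase median is -1.54, the mitotic median -1.04, the reference gene median -0.87 and the median of inhibitors of proliferation 1.25.

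Markers of cell types also differed between the libraries, not all at the same step. The 8 pluripotency genes in the table summed to 2283 FPKM in the control and 181, 273 and 249 FPKM in the ATRA libraries, all 8 lower at each time, and Pou5f1 (Oct4) was at 1241, 97.4, 150 and 141 FPKM. The 8 endoderm markers summed to 166, 337, 2450 and 3571 FPKM and the 7 epithelial markers to 204, 374, 2408 and 4054 FPKM. At 0 days not all went with the sums: in each of these 2 lists 4 markers were called higher than the control and 1 lower. Of all genes 12.2% were higher and 12.8% lower. The 7 neuronal markers summed to 7.89, 9.62, 70.3 and 34.1 FPKM, the 4 neural progenitor markers to 1.21, 32.8, 53.4 and 24.6 FPKM, and the 7 muscle and mesenchyme markers to 14.80, 14.76, 99.9 and 389 FPKM. Sums weigh abundant genes most: Sparc alone gave 133, 259, 1862 and 2711 FPKM of the endoderm sums. Among the neural progenitor markers, Fabp7 went from 1.13 to 35.9 FPKM between 0 and 6 days and Cdh2 from 4.27 to 6.48 FPKM. In that step Dach1 went down from 15.1 to 4.59 FPKM and Nr2f1 from 12.3 to 6.47 FPKM. The pluripotency sum differed most between the control and 0 days, while the endoderm, epithelial and neuronal sums differed most in absolute terms after 0 days. None of these markers was at 0 in any library. Only 4 of the 7 neuronal markers and 6 of the 7 muscle and mesenchyme markers reached 1 FPKM in at least 1 library. In bulk RNA, fewer cycling cells and less RNA of these genes per cell cannot be told apart, and the part of cell make-up in the decline was not tested.

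Transcript length went with the size of the mitotic difference. Across the 27 mitotic members, which share the same libraries and are not independent, the 10-day difference from the control had a Pearson's r of -0.47 and a Spearman's rho of -0.53 with the log2 length of the longest coding transcript. The 9 shortest transcripts had a median of -0.50 and the 9 longest a median of -1.39. At 0 days r was -0.01. Among the 16 S phase members r was 0.06, with medians of -1.47 for the 5 shortest and -1.25 for the 6 longest. Over the 5680 genes with a length the medians were 0.21 for the 1893 shortest and -0.20 for the 1894 longest. Kif14, Aspm and Cenpf, the longest mitotic transcripts at 8943, 9867 and 11130 nt, were at 25.8%, 28.5% and 32.7% of the control at 10 days, and Cks2, the shortest at 692 nt, at 84.2%. The classes had nearly the same median length, 3310 nt for S phase and 3227 nt for mitotic members. The part of length in these differences was not tested.

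**Figure D5:**
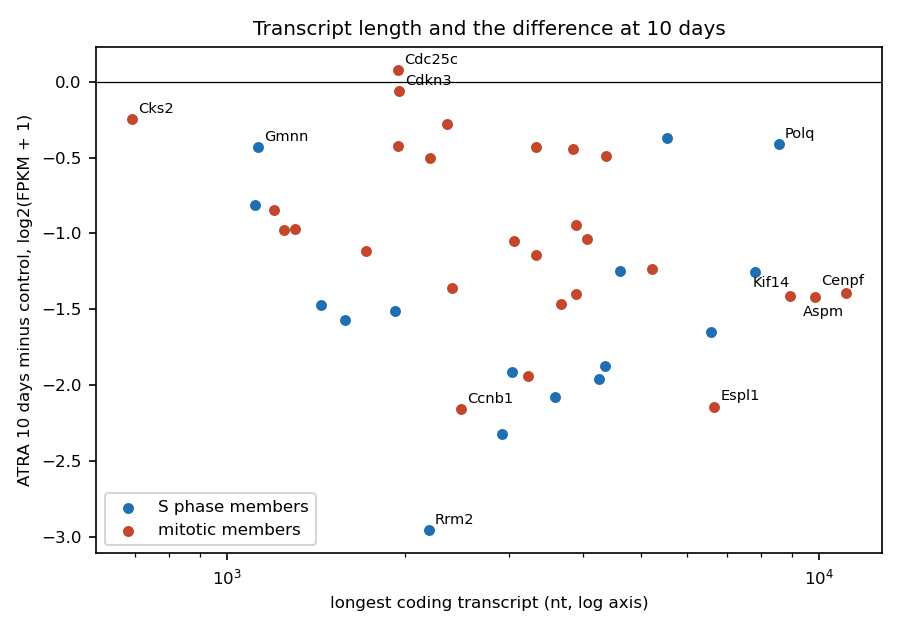
Longest annotated coding transcript (nt, log axis) against the difference between 10 days and control on the log2(FPKM + 1) scale for 16 S phase members (blue) and 27 mitotic members (red). The 9 shortest mitotic transcripts have a median of -0.50 and the 9 longest -1.39, and no such slope is seen in the S phase members.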

How the data were processed

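Embryoid bodies of the ES-E14TG2a line gave 4 RNA-seq libraries, 1 per group. The labels' protocols describe TRI Reagent extraction and cDNA primed with oligo(dT). The deposited values are FPKM, per the file headers. The submitters' processing notes name Trimmomatic, TopHat, Cufflinks and mm10. Their versions, the annotation, strand use and filters: not given in the sources used here. Because FPKM is relative to a library's total, a change in very abundant transcripts shifts every other gene.

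Rows of the 177 repeated symbols were summed. A pseudocount of 1 was added before log2, genes under 1 FPKM in every library were left out (5885 stayed), and calls were made at 2-fold. There was no test. The table gives no counts, and depth was estimated from low values of 1377 genes with a single transcript of 800 nt or more. The median FPKM times kb of values between 0.02 and 0.05 was taken as the worth of 1 fragment. Each library had 122 to 145 such values. That window bounds the result, so the depth and the counting errors drawn from it are rough. Classes were set by function, with Ube2t and Esco2 counted in S phase. Members and lists were chosen with earlier results of these data known. Of the further listed genes, 18 of 70 for replication and 22 of 87 for mitosis were analysed. The same held for 10 of 27 G1 genes, 9 of 21 inhibitors and 7 of 18 references. Of the listed markers, 8 of 16 for pluripotency, 4 of 10 for neural progenitors and 7 of 13 for neurons were analysed. For endoderm it was 8 of 12, for epithelium 7 of 8, and for muscle and mesenchyme 7 of 9. Every member is named, and of the replication, mitosis, G1, inhibitor and reference lists the 3 highest and 3 lowest 10-day differences among tested genes, with any that went against the list by 2-fold; 1 gene that the rule names is not reported here. Marker lists are given as sums, and Pou5f1, Sparc, the neural progenitor markers, Cdc23, Ubxn6 and Kifc5b are named besides. Promoters came from RefSeq (GRCm38.p6), and lengths, overlaps and positions from GENCODE M21 on mm10. Near-identical copies (95% identity over 50% of the transcript) were searched with minimap2 2.31-r1302. The alternatives were pseudocounts of 0.1 and 0.5, median-ratio or upper-quartile scaling, no filter or one at 5 FPKM, the highest row of a repeated symbol, a 4-fold threshold and the 2 genes moved to the mitotic class. Reference gene scaling, and leaving out members with copies, were chosen after seeing the data. The calling step was also run on simulated libraries, with the outcome not reported here. Such a run checks the calculation only and cannot give the missing replicate spread. Scripts ran in Python 3.11.15 with pandas 2.3.3 and numpy 2.4.6; correlations came from scipy 1.17.1 and plots from matplotlib 3.10.9.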

Additional observations from a re-analysis of the deposited data

How the results depend on the processing

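Of 200 values recomputed for 20 results under the alternatives, 184 kept their direction and moved by less than 1.5-fold (for counts, stayed within 1.5 times). Upper-quartile scaling gave 9 members 2-fold or more lower at 0 days and 10 at 6 days, in place of 22 and 16. Of 5899 genes, 497 and 519 were lower at these times under that scaling. A 4-fold threshold gave 2, 2 and 5 members lower than the control at 0, 6 and 10 days. By that threshold 153, 146 and 189 of all 5885 genes were lower. Reference gene scaling, chosen after seeing the data, gave 3, 8 and 8, against 242, 355 and 280 of 5922 genes. Its S phase medians were -0.39 at 0 days and -0.67 at 10 days and its mitotic medians -0.070 and -0.165. The same scaling gave 1 member lower between 0 and 6 days (0 as deposited), turned the mitotic median of that step to -0.28, and turned the medians from 6 to 10 days to 0.062 (S phase) and 0.26 (mitotic). The cause was not tested. Leaving out Ccnb1, Kifc1 and Pbk, which have near-identical copies, moved no result past these limits. The difference between class medians kept its sign in all 5 comparisons under every alternative run. Scaling moves both medians nearly alike, and the filters and the highest-row rule left the members' values unchanged. Those alternatives therefore could not test this difference. With 1 library per group, no library could be left out. By the rough depth estimate, the fewest fragments of any member were 300 (Cdkn3).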

Other observations

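The level in the control went with the size of the difference in both classes at 0 days and in the S phase class at 10 days. At 0 days Pearson's r between log2 control FPKM and the difference was -0.52 for S phase and -0.55 for mitotic members. At 10 days, across the 16 S phase members r was -0.59 (Spearman's rho -0.64), and across the 27 mitotic members -0.05 (rho 0.03). The control level enters both quantities, and the genes share the same libraries. The classes also differed in control level, with medians of 97.2 FPKM for S phase and 43.4 FPKM for mitotic members. The part of level in the difference between the classes was not tested.

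The presence of a CHR did not order the mitotic differences the same way at each time. The 15 mitotic members with one had a 10-day median of -1.14 and the 6 without (Cks2, Nek2, Cenph, Cenpk, Cenpm and Nuf2) a median of -0.97. At 0 days the order was the opposite, -0.73 and -0.97. The 4 S phase members with an E2F motif had a 10-day median of -1.89 and the 8 without -1.49. The 3 S phase members with a CHR (Rrm2, Tk1 and Polq) had medians of -2.57 at 0 days and -1.47 at 10 days, and the 9 without -1.13 and -1.57. All these medians are descriptions of few genes.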
